A study of Mus musculus with 6 samples.

Results

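The genes described here build fatty acids and put the first double bonds into them: Scd1 and Scd2, Fasn, Acaca, Acly, Elovl5, Elovl6, Fads1, Fads2 and Srebf1. They were taken from an Affymetrix mouse array as all probe sets, the groups of short probes that report 1 transcript, whose annotation names exactly 1 of these 10 symbols. That gave 25 probe sets of 34945 with a single symbol, for 10 of 18193 genes. The genes were chosen by their function in 1 pathway with their log2 signals in knockout and control islets already known, so the values of that comparison are a description, and no test is drawn from the group as a whole.

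The arrays measured RNA of isolated pancreatic islets, 3 arrays from control mice and 3 from Vhlh knockout mice. Islets are groups of hormone-secreting cells scattered through the pancreas, most of them beta cells that make insulin. The mouse model combines a floxed Vhlh allele (Vhlh(fl/fl)) with RIP2-Cre, a recombinase driven by an insulin promoter, so that deletion is directed to beta cells while the other islet cells keep the gene; the labels give the other group as control and no further allele of it. The product of Vhlh, annotated as Vhl, is the von Hippel-Lindau protein, through which hypoxia-inducible factors (HIF) are broken down when oxygen is present. In each genotype array 1 came from mice of 26 weeks recorded as male, array 2 from mice of 20 weeks recorded as female, and array 3 from mice of 18 weeks recorded as male. The sources used here do not say how many mice gave each batch of islets, so p-values cover the spread among these batches, which may be technical in part.

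Cells make fatty acids from citrate. ATP citrate lyase (Acly) turns citrate into acetyl-CoA, acetyl-CoA carboxylase (Acaca) makes malonyl-CoA from it, and fatty acid synthase (Fasn) assembles palmitate. Elongases of the Elovl family lengthen the chain, stearoyl-CoA desaturases (Scd) make monounsaturated from saturated fatty acids, and the Fads desaturases act on polyunsaturated ones. Srebf1 encodes SREBP-1, the transcription factor that drives many of these genes together in liver and fat. The Scd, Fads and Elovl steps shape the lipids of membranes and of stored fat, and in beta cells desaturation is known as a protection against saturated fatty acids.

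Of the 10 genes, 1 separated the genotypes. Scd1 signals were 3.10-fold higher in knockout islets on its bright probe set, with no overlap between groups, but the difference did not pass the threshold over all genes. The signals of the other 9 genes overlapped between the genotypes, with log2 differences between -0.33 and 0.22. The enzymes that make palmitate, Acly, Acaca and Fasn, and the regulator Srebf1 differed less between genotypes than arrays of 1 genotype differed among themselves.

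Several facts about the arrays bear on these values. Vhl itself, on the probe set bright enough to test, had signals of 457, 639 and 839 in controls 1 to 3. In knockouts 1 to 3 they were 344, 358 and 467, or 61.7% of the control level. This difference did not pass the threshold, and the groups overlapped, with knockout 3 above control 1. The other Vhl probe set, too dim to test, gave 100, 122 and 28.1 in controls 1 to 3 and 81.1, 35.4 and 42.1 in knockouts 1 to 3. The source of the remaining Vhl signal was not tested. The arrays numbered 3 stand against their recorded sex: Xist, the transcript of the inactive X chromosome, had signals of 11689.6 and 7662 on control 3 and knockout 3, where control 1 and knockout 1 had 35.8 and 13.3, and the summed signal of Y-linked genes was 187 and 159 on the arrays numbered 3 against 3019 and 2766 on those numbered 1. This holds in both genotypes, so the numbers still match arrays alike in this respect, and values without both arrays numbered 3 are given where they bear on a result. The summed signal of 8 beta-cell markers was 110377 to 156039 in controls and 88939 to 161644 in knockouts. Over the 11609 genes bright enough to test the median log2 difference was -0.00028.

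Short stretches of promoter sequence show what lies in front of genes of this group that did not separate the genotypes. They come from RefSeq windows of build GRCm38.p6 that run from 250 bases before to 50 after a transcription start, and 7 of the 10 genes matched an entry, with 9 windows; Scd1, Scd2 and Fads1 did not. Each stretch is 100 bases long and written 5′ to 3′ on the gene's strand: those of Fasn and Acly end at the base before the start, while that of Elovl5 begins 200 bases before it. Matches elsewhere in the windows are not printed, among them the CCAAT matches of Elovl5 that begin 71 and 17 bases before the start. Capitals mark the HIF core letters ACGTG or GCGTG and the letters CCAAT, bound by the factor NF-Y, each on either strand; in Fasn 2 CCAAT matches on opposite strands overlap, and in Elovl5 the ACGTG matches of both strands form 1 CACGTG.
Fasn, chr11:120824548-120824647, minus strand: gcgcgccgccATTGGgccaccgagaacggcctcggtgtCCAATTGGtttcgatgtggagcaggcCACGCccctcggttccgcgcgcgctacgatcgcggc
Acly, chr11:100528001-100528100, minus strand: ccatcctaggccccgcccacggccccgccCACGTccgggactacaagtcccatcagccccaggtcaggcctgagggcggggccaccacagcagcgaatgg
Elovl5, chr9:77917165-77917264, plus strand: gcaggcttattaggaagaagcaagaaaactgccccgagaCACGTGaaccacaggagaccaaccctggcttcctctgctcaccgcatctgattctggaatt

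The HIF core letters were found in 4 of the 9 windows, those of Fasn, Acly, Elovl5 and Elovl6, and in 43.8% of all 32851 windows of this length. CCAAT was found in 5 of the 9 windows and in 37.4% of all windows, CACGTG in 1 and in 7.15%, and the sterol response letters TCACNCCAC in 0 and in 1.24%. A match of letters is a description of the sequence and not a bound site.

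The Scd enzymes place a double bond at the same position of saturated fatty acids, and Scd1 and Scd2 are the main forms in adult tissues. On the array the probe set that stands for Scd1, 1415964_at, had signals of 331, 793 and 403 in controls 1 to 3 and 1053, 1979.6 and 1514 in knockouts 1 to 3. Every knockout array was above every control array, and the lowest knockout and the highest control, 1053 and 793, were the nearest pair. Controls had a mean log2 signal of 8.89 ± 0.66 and knockouts one of 10.52 ± 0.46 (SD, n = 3 each). The log2 difference was 1.63 ± 0.39 (SE), with a 95% interval from 0.75 to 2.51. The adjusted p was 0.870 over all genes in limma, and 0.123 with the array number as a block, so the call was not made in either fit.

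The Scd1 difference had the same direction in every pair of arrays of the same number. The knockout signal was 3.18-fold the control signal in the pair numbered 1, 2.50-fold in the pair numbered 2 and 3.76-fold in the pair numbered 3. In both genotypes array 2, from the mice recorded as female, had the highest signal and array 1 the lowest. Without both arrays numbered 3 the log2 difference was 1.49, and it lay between 1.38 and 2.01 when each array was left out in turn.

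The second Scd1 probe set did not show this difference. Probe set 1415965_at, annotated with the same accession, was dim, above the array median on 2 of 6 arrays, and was not tested. Its signals were 45.1, 162 and 60.0 in controls 1 to 3 and 85.0, 152 and 59.1 in knockouts 1 to 3, which overlap throughout. With the mean of both probe sets in place of the bright one the Scd1 log2 difference was 0.95, so the size given for Scd1 rests on 1 probe set.

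Scd2, the form best known from brain and developing tissue, had signals of 8146, 6938 and 8101 in controls 1 to 3 and 9948, 6668 and 11011 in knockouts 1 to 3 on probe set 1415822_at. Knockouts 1 and 3 lay above all controls and knockout 2 below them. The log2 difference was 0.22 with a 95% interval from -0.36 to 0.81. The other Scd2 probe sets differed by 0.16 on 1415823_at and 0.46 on 1415824_at, both with overlapping groups. The 1415824_at signal was higher in the knockout in each pair, by 0.29, 0.64 and 0.45 on the log2 scale, while on 1415823_at the pair numbered 1 went the other way, by -1.51.

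On the probe sets that stand for them, Scd1 and Scd2 did not differ alike. Other probe sets do not show this, with Scd1 at 0.27 on the dim 1415965_at and Scd2 at 0.46 on 1415824_at. The log2 ratio of Scd1 to Scd2 within an array, from the standing probe sets, was -4.62, -3.13 and -4.33 in controls 1 to 3. In knockouts 1 to 3 it was -3.24, -1.75 and -2.86. Knockout 1 lay just below control 2, so the groups overlapped by these arrays alone. Within the same-numbered pairs the ratio was higher in the knockout by 1.38, 1.38 and 1.47, with a mean of 1.41. Since these are signals of different probe sets, the ratio itself is no relative amount of the transcripts, and only its change between arrays can be read.

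**Figure D1:**
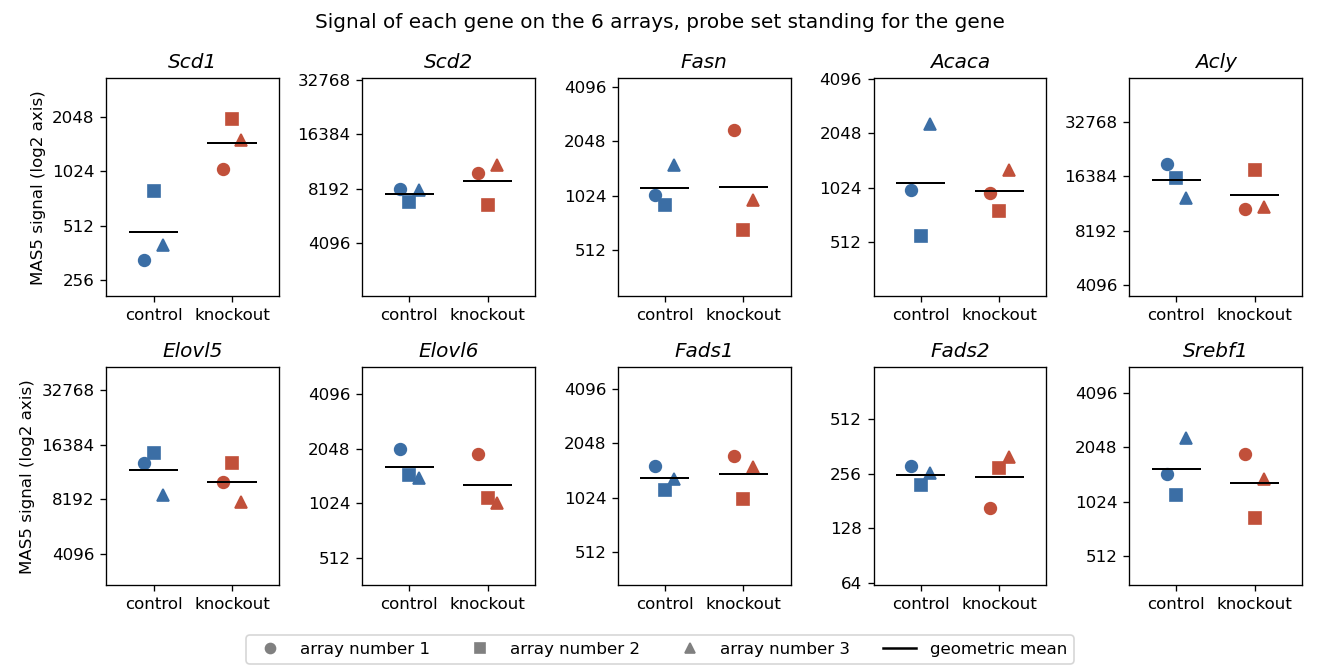
MAS5 signal of each of the 10 genes on the 6 arrays, on a log2 axis that spans the same number of doublings in each panel, with the array number as marker shape and the geometric mean of each genotype as a line. Scd1 is the 1 gene whose knockout arrays (1053 to 1979.6) all lie above the control arrays (331 to 793).

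Acly, the enzyme that supplies acetyl-CoA, had 6 probe sets, of which 4 were bright enough to test. On 1451666_at, which stands for the gene, signals were 19183, 16051 and 12491 in controls 1 to 3 and 10850.3, 17742 and 11136 in knockouts 1 to 3. Knockouts 1 and 3 lay below all controls and knockout 2 between them, and the log2 difference was -0.28 with a 95% interval from -0.90 to 0.34.

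The Acly probe sets disagreed most on knockout 1. Probe set 1425326_at, with the same accession as 1451666_at, gave 1084 on knockout 1 and 2354 to 4513 on the 5 other arrays. Probe set 1439459_x_at gave 25742 on knockout 1, the highest of its 6 signals, and had a log2 difference of 0.11; probe sets of the _x_at kind can bind related transcripts. The remaining bright Acly probe set, 1446315_at, differed by 0.21, so 2 of the 4 lay above 0 and 2 below.

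Acaca, the carboxylase that makes malonyl-CoA, had signals of 991, 551 and 2302 in controls 1 to 3 and 949.6, 762 and 1284 in knockouts 1 to 3 on 1434185_at. The highest and the lowest of the 6 signals were both controls, 4.18-fold apart. The log2 difference was -0.15 with a 95% interval from -1.24 to 0.94, the widest of the 10 genes. Its second probe set, 1427595_at, lay below the array median on all 6 arrays, at 4.08 to 81.4, and was not tested.

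Fasn, the synthase that assembles palmitate, had 1 probe set, with signals of 1032, 912 and 1515 in controls 1 to 3 and 2361, 659.96 and 968 in knockouts 1 to 3. The highest and the lowest of the 6 were both knockouts, 3.58-fold apart. The log2 difference was 0.03 with a 95% interval from -1.0 to 1.05. The pair numbered 1 differed by 1.19, the pair numbered 2 by -0.47 and the pair numbered 3 by -0.65, and without knockout 1 the difference was -0.49.

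Srebf1, whose protein regulates Fasn, Acaca, Acly and the Scd genes, had 1 probe set, with signals of 1455, 1113 and 2322 in controls 1 to 3 and 1891, 836 and 1376 in knockouts 1 to 3. The groups overlapped, and the log2 difference was -0.26 with a 95% interval from -1.14 to 0.61. Like Fasn, it was higher in the knockout in the pair numbered 1 (0.38) and lower in the pairs numbered 2 (-0.41) and 3 (-0.75). The probe set does not tell the transcripts of SREBP-1a and SREBP-1c apart in the annotation used here.

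Elovl6, which extends palmitate to stearate, was lower in knockouts on each of its 3 probe sets, though the groups separated on 1. On 1417404_at, which stands for the gene, signals were 2056, 1471 and 1407 in controls 1 to 3 and 1921, 1091 and 1032 in knockouts 1 to 3, a log2 difference of -0.33 with a 95% interval from -1.06 to 0.41. On 1417403_at they were 877, 698 and 798 in controls and 609.9, 527 and 458 in knockouts, so every knockout lay below every control. That log2 difference was -0.58 ± 0.27 (SE), and it did not pass over all probe sets (limma adjusted p 1.00). The third probe set, 1442656_at, differed by -0.23, with the pair numbered 1 at 0.41.

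Elovl5, which extends polyunsaturated fatty acids, had signals of 12972, 14821 and 8663 in controls 1 to 3 and 10149.5, 12924 and 7941 in knockouts 1 to 3 on 1415840_at. Each knockout lay below the control of the same number, by -0.35, -0.20 and -0.13 on the log2 scale, and the arrays numbered 3 were lowest in both genotypes. The log2 difference was -0.23 with a 95% interval from -0.88 to 0.42. On 1437211_x_at it was -0.06, with signals from 17019 to 24070.3 where the array maxima were 40917 to 76826.

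The desaturases of polyunsaturated fatty acids, Fads1 (delta-5) and Fads2 (delta-6), differed little on the probe sets that stand for them. Fads1 had signals of 1539, 1135 and 1297 in controls 1 to 3 and 1748, 1004 and 1512 in knockouts 1 to 3, a log2 difference of 0.08 with a 95% interval from -0.60 to 0.75. Fads2 had signals of 282, 222 and 259 in controls 1 to 3 and 167, 277 and 317 in knockouts 1 to 3, a log2 difference of -0.05 with a 95% interval from -0.85 to 0.76. In both genes the highest and the lowest of the 6 signals were knockouts.

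Other probe sets of both Fads genes gave groups that did not overlap. For Fads1, 1440444_at had 148, 89.0 and 145 in controls 1 to 3 and 197, 204 and 156 in knockouts 1 to 3, a log2 difference of 0.57. For Fads2, 1443838_x_at had 77.8, 129.7 and 81.3 in controls 1 to 3 and 130.3, 133.6 and 170.03 in knockouts 1 to 3, a log2 difference of 0.62, in which knockout 1 and control 2 were almost equal. The third Fads2 probe set, 1449325_at, differed by -0.41 with overlapping groups. Within each Fads gene the probe sets thus did not agree on whether the genotypes separate.

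**Figure D2:**
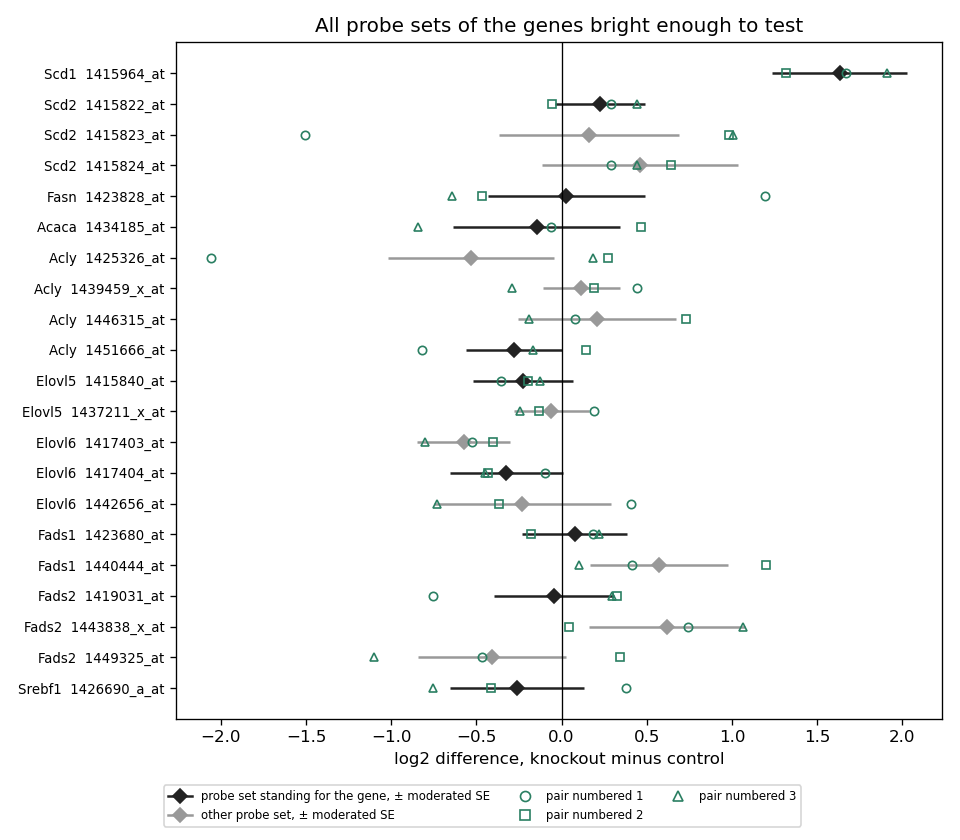
Log2 difference, knockout minus control, of the 21 probe sets bright enough to test, with limma's moderated standard error as bars and the difference of each same-numbered pair as open markers. Scd1 1415964_at lies at 1.63 with all pairs above 1.3, and the others lie between -0.58 and 0.62.

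Over the whole group, 0 of the 10 genes passed an adjusted p of 0.05 in limma, where 2 of the 11609 genes tested did, Ak4 and Prelid2, or 0.0172% of genes. With the array number as a block 6 genes passed, 0 of them from this group, or 0.0517% of genes. At an unadjusted limma p of 0.05 the counts were 1 of 10, Scd1, and 300 of 11609, or 2.58%. Knockout signals lay above all control signals for 1 of 10 genes, against 3.98% of all genes, and below them for 0 of 10, against 2.77%. The log2 difference was above 0 for 4 and below 0 for 6 genes, where it was above 0 for 50% of all genes, with a median of -0.10. Since the genes were chosen with this comparison known, nothing is read from these counts.

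Of the 25 probe sets, 21 were bright enough to test and 4 were not, and 10 of the 21 had a log2 difference above 0 and 11 below, where 48.1% of all probe sets tested were above 0. Without overlap between the groups, 3 were higher in knockouts, 1 each of Scd1, Fads1 and Fads2, against 3.44% of all 19853 probe sets tested, and 1 was lower, of Elovl6, against 2.98%. None of the 21 passed an adjusted p of 0.05 in limma, where 4 of all probe sets, or 0.0201%, did, and at an unadjusted limma p of 0.05 the count was 1 of 21, against 2.21% of all.

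The arrays of 1 genotype differed from each other in ways that some of these genes shared. Profiles over the 6 arrays, centred on each gene's mean, were compared by their root mean square difference on the log2 scale. Among the 45 pairs of the 10 genes the most alike were Scd2 and Fads1 (0.15), Acly and Elovl5 (0.19) and Fasn and Srebf1 (0.31). The measure is also small for genes that vary little. Of 11608 other genes, Fads1 came 99th from Scd2 and Elovl5 291st from Acly. The 5 tested genes closest to Fasn were Wnk4 (0.06), Sbk1 (0.11), Syvn1 (0.11), Ube2r2 (0.11) and Slc9a3r1 (0.13), all highest on knockout 1 as Fasn was; Srebf1 came 298th of 11608.

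The 5 tested genes closest to Scd1 by the same measure were Flrt2 (0.26), Ephb3 (0.29), Ahnak (0.29), Clmn (0.30) and Tmem74 (0.33). Their log2 differences lay between 1.09 and 1.85, and in Ephb3, Ahnak and Clmn the groups did not overlap. Knockout signals lay above all control signals for 3.98% of all genes. Since the 5 were picked for a profile like that of Scd1, these values follow from the choice and nothing is read from them. Ephb3, at 24.1, 70.1 and 37.4 in controls 1 to 3, was above the array median on knockout arrays only. No gene of the group described here was among the 5.

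The genes around this pathway were read from lists chosen with earlier results known, and none of their members passed an adjusted p of 0.05 in limma, where 0.0172% of all genes did. At an unadjusted limma p of 0.05 the 5 lipid lists held 2 of 73 genes tested, Elovl4 and Elovl2, a share close to the 2.58% of all genes. The list of 12 HIF target genes held 11. Of 11 further genes of precursor supply and synthesis, 5 had a log2 difference above 0 and 6 below, with a median of -0.03. The lowest p there belonged to Thrsp, a nuclear protein linked to lipogenesis, at 0.53 (SE 0.31), Mcat, of mitochondrial fatty acid synthesis, at 0.26 (SE 0.28), and Oxsm, of the same route, at -0.32 (SE 0.45). Me1, a malic enzyme that yields NADPH, differed by -0.18 and Acacb, the acetyl-CoA carboxylase of mitochondria, by -0.20.

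Among other elongation and desaturation genes, Elovl4 and Elovl2 had lower signals on every knockout array than on any control array. Of 15 tested, 4 lay above 0 and 11 below, with a median of -0.12. Elovl4, which makes very long chains, had signals of 273, 294 and 386 in controls 1 to 3 and 164, 178 and 136 in knockouts 1 to 3. Every knockout lay below every control, and the log2 difference was -0.99 ± 0.33 (SE, limma adjusted p 0.9998); it was -0.51 when its probe sets were averaged and -0.73 without both arrays numbered 3.

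Elovl2, which extends long polyunsaturated chains, had signals of 444, 715 and 640.3 in controls 1 to 3 and 350.0, 332 and 391 in knockouts 1 to 3. Here too the groups did not overlap, and the log2 difference was -0.72 ± 0.29 (SE, limma adjusted p 0.9998). Hacd1, a dehydratase of the elongation cycle, lay in the other direction, at 0.55 (SE 0.29), and Scd3, a further stearoyl-CoA desaturase, was at -0.17 (SE 0.47). Knockout signals lay below all controls for 2 of the 15 genes and above them for 2, where 2.77% and 3.98% of all genes did.

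Regulators of lipid synthesis had 4 of 18 genes above 0 and 14 below, with a median of -0.17. Mlxipl, which encodes the glucose-responsive factor ChREBP, had signals of 4816, 2796 and 3152 in controls 1 to 3 and 3985, 1818 and 1569 in knockouts 1 to 3. The groups overlapped, each knockout lay below the control of the same number, and the log2 difference was -0.63 ± 0.39 (SE). Pparg, the fat-cell regulator, differed by -0.77 (SE 0.59) and Rxra, a partner of nuclear receptors, by 0.50 (SE 0.37). Srebf2, the cholesterol counterpart of Srebf1, differed by -0.06, and Insig1, which holds SREBP proteins in the endoplasmic reticulum, by 0.12.

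Genes of acyl-CoA and triglyceride synthesis lay on both sides of 0, 6 of 13 above and 7 below, with a median of -0.0027. The lowest p belonged to Agpat2 (-0.44, SE 0.39), an acyltransferase, Lpin2 (0.27, SE 0.25), a phosphatidate phosphatase, and Gpam (-0.25, SE 0.28), the first acyltransferase of the route. Cholesterol synthesis genes, the targets of SREBP-2, had 9 of 16 above 0 and a median of 0.07, with Pmvk at 0.48 (SE 0.27), Fdps at -0.51 (SE 0.38) and Hmgcs1 at 0.45 (SE 0.35). As a description of the arrays, 12 of 12 HIF target genes had a log2 difference above 0, with a median of 1.85. In 11 of them every knockout signal lay above every control signal, against 3.98% of all genes. Egln3 (43.2 to 52.9 in controls) and Adm (35.7 to 51.9 in controls) were above the array median on knockout arrays only. The filter thus all but fixed the separation of Egln3 and Adm. Since the list was chosen with earlier results known, nothing is read from these counts. Of the 12, 0 passed in limma over all genes, where 0.0172% of genes did, and 3 passed with the array number as a block, where 0.0517% did.

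**Figure D3:**
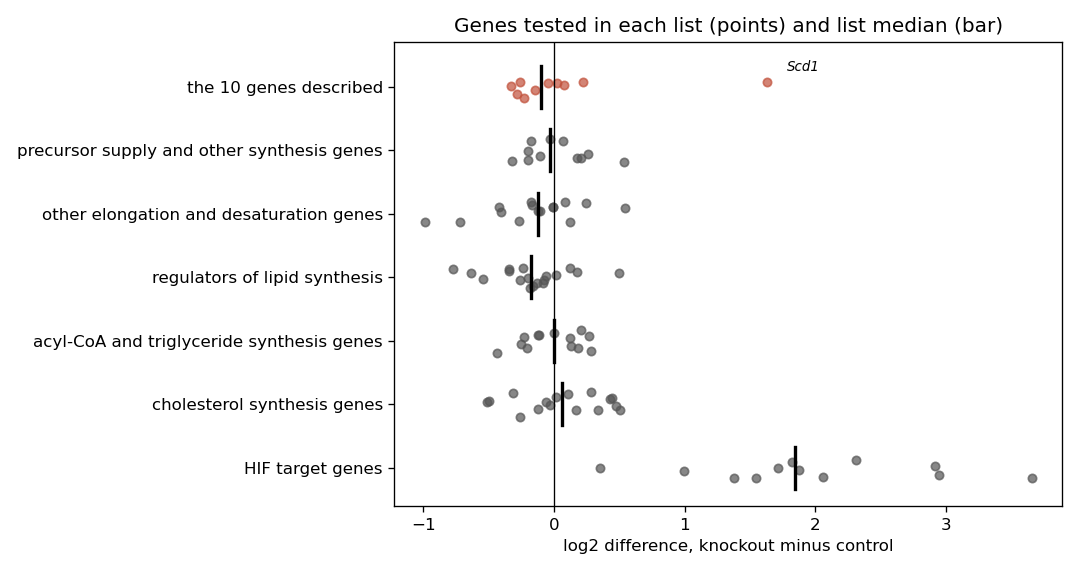
Log2 difference, knockout minus control, of each tested gene (points) in the group described and in 6 related lists, with each list's median as a bar. The lipid lists have medians between -0.17 and 0.07, Scd1 lies at 1.63 apart from its group, and the HIF target genes have a median of 1.85.

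Whole islets do not show which cells a signal came from, and in such bulk samples fewer cells of a type and less RNA per cell cannot be told apart. Adipocytes express Scd1, Fasn and Acly at high levels. Of 9 adipocyte markers measured, 1, Fabp4, was above the array median on at least 3 arrays. Adipoq, the adipocyte hormone gene, was below the median on all 6. Adipoq had its highest signal, 83.4, on knockout 2, the array where Scd1 was also highest, and 2.22 to 22.9 on the 5 others. Cidea (184.7, above the array median there), Cidec (64.6) and Lipe (121.5), genes of fat storage and release, were highest on knockout 2 as well. The remaining markers were highest on a control array: Fabp4 (2941) on control 2, Retn (99.9) and Car3 (186) on control 3, and Lep (46.7) and Aqp7 (74.6) on control 1. The mean log2 signal of the 9 markers was 6.69 on knockout 2 and 4.89 to 5.91 on the other arrays. With that mean as a covariate the log2 difference of Scd1 was 1.59 (limma adjusted p 0.839). Most of the 9 markers were dim, so that mean is an uncertain measure of adipocytes. The part of adipocytes in the Scd1 result was not tested. The summed adipocyte signal, mostly Fabp4, which vessels and macrophages also express, was 1249 to 3281 in controls and 2742 to 3173 in knockouts.

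The summed signal of vessel markers was higher in knockouts, as that of Scd1 was. The summed signal of 8 endothelial markers was 6347 to 6452 in controls and 8702 to 10888 in knockouts, without overlap. Kdr gave the largest part of it, with 3652 on control 1 and 7130 on knockout 1. Taken singly, 3 of the 7 endothelial markers tested were higher without overlap, against 3.98% of all genes. Tie1, too dim to test, differed by -0.23. The sum of 10 fibroblast and matrix markers was 2837 to 6215 in controls and 5628 to 22231 in knockouts, with overlap. The matrix sums were 2837, 6215 and 3378 in controls 1 to 3, in the same order as the Scd1 signals there, and 5628, 8237 and 22231 in knockouts 1 to 3, where knockout 1 was lowest for both and the highest was knockout 3 for the matrix sum and knockout 2 for Scd1. The endothelial sums were 6427, 6347 and 6452 in controls 1 to 3 and 10888, 8702 and 10113 in knockouts 1 to 3. In both genotypes array 2 was lowest for the endothelial sum and highest for Scd1, but the control sums lay close together. By the mean log2 signal of the same list control 3 was lowest among controls, at 8.557, where control 2 had 8.565. The part of these cells in the Scd1 result was not tested. Markers of alpha, delta and PP cells gave 97084 to 110965 in controls and 95155 to 131096 in knockouts. Macrophage and leukocyte markers gave 3436 to 7815 in controls and 4464 to 7742 in knockouts, and duct markers 11763 to 19502 in controls and 9365 to 21788 in knockouts.

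Acinar markers, from exocrine tissue around the islets, spread most between arrays. The summed signal of 15 markers was 421333, 487244 and 108478 in controls 1 to 3 and 453486, 618932 and 11607 in knockouts 1 to 3, so that knockout 3 held far less than any other array. With the mean log2 signal of this list as a covariate the log2 difference of Scd1 was 1.67, of Scd2 0.14, of Fasn 0.0043 and of Srebf1 -0.36. The adjusted p of Scd1 was 0.864 in that limma fit.

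**Figure D4:**
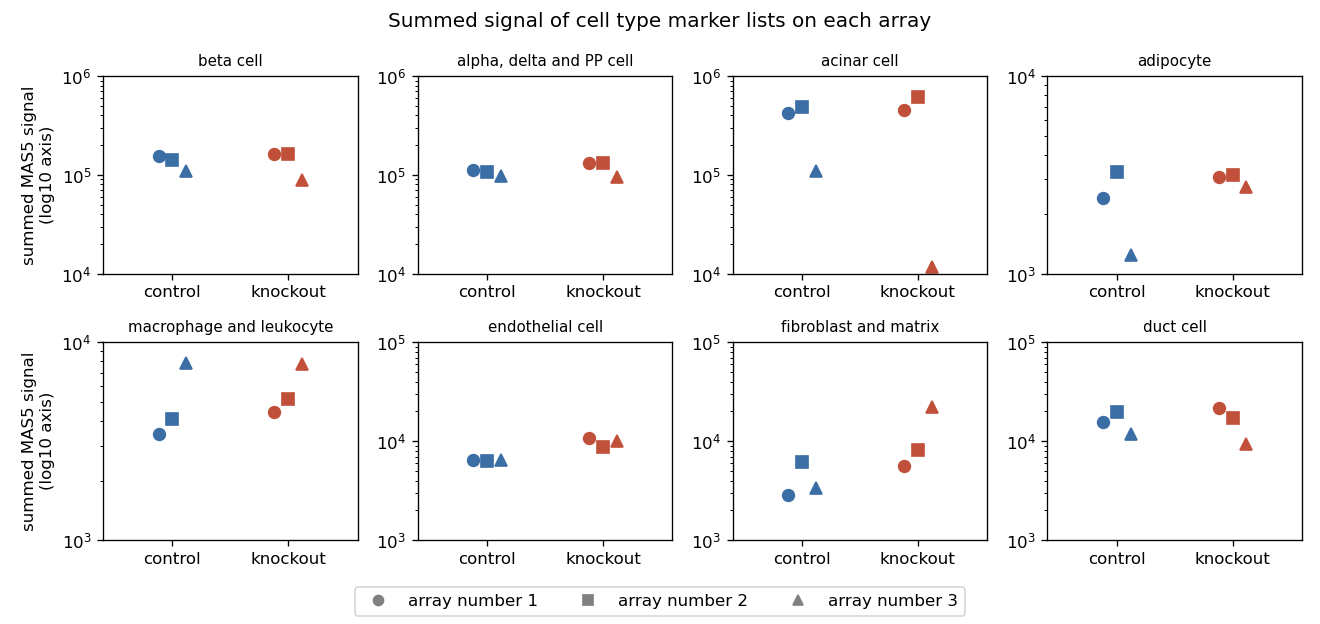
Summed MAS5 signal of 8 lists of cell type markers on each array, on log10 axes, with the array number as marker shape. Endothelial sums, of which Kdr is the largest part, are 6347 to 6452 in controls and 8702 to 10888 in knockouts. The acinar sum drops to 11607 on knockout 3.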

How the data were processed

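RNA of isolated islets was measured on 6 Affymetrix arrays, 3 of each genotype. Each deposited value is a linear signal intensity that the authors computed for 1 probe set; the submitters' processing notes name GCOS 1.4 and MAS5. The 2% trimmed mean was 500.003 on every array, and array medians were 101.9 to 122.7. Per the labels' protocols, small RNA amounts were amplified in a pair of cycles before hybridization. Detection calls were not used here. Precision is limited by how few arrays there are.

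Of 45101 probe sets, 64 controls were left out, and of the others 34945 had 1 symbol, 932 several and 9160 none. The probe set with the highest mean log2 signal stood for its gene (those ending in _x_at only where there was no other), and a gene was tested if above the array median on at least 3 of 6 arrays; probe sets were also fitted singly. The log2 signals were compared with limma 3.58.1 in R 4.3.3 (eBayes with intensity trend, Benjamini-Hochberg over all features tested, threshold 0.05). Adjusted p-values are limma's. The script was tested on simulated data.

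Both genotypes share the numbers 1 to 3, with equal age and recorded sex. Deviations from the group means correlated at 0.15, 0.42 and 0.43 within the same-numbered pairs, each above 0.1, the rule for treating the numbers as pairs. Control 1 with knockout 2 reached 0.14, so these correlations do not single out the pair numbered 1. The main limma fit did not use the numbers.

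The members and lists were chosen with earlier results of these data known. Besides the 10 genes, the text names Vhl, up to 3 genes of lowest p in each pathway list with a few set beforehand, the 5 genes with profiles closest to Scd1 and to Fasn, and Xist and Y-linked genes as a check of labels. Alternatives were a replicate block, other filters, a pseudocount of 16, quantile and median scaling, no trend, array weights, marker means as covariates, leaving out arrays, and averaging the probe sets of each gene. RefSeq promoter windows were searched on both strands.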

Additional observations from a re-analysis of the deposited data

How the results depend on the processing

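None of the 10 genes passed under any alternative in which it was tested (Acaca was too dim to test with its probe sets averaged), in which the adjusted limma p of Scd1 ranged from 0.123 to 0.9997. Scd1, Scd2, Acly, Elovl5 and Elovl6 kept the sign of their log2 difference in every alternative, Scd1 between 0.95 (mean of its probe sets) and 2.01 (without control 2). The sign changed in 4 alternatives each for Fasn (from -0.49 without knockout 1 to 0.43 without knockout 2) and Acaca (from -0.63 without control 2 to 0.40 without control 3), in 3 each for Fads1 and Fads2 and in 2 for Srebf1. The group's median, -0.10, was between -0.14 and 0.046 with 1 array left out, above 0 without control 3 (0.046) and without knockout 2 (0.043), and 0.027 with the probe sets of each gene averaged. Genes called numbered 2, and 6 with the replicate block, 1 with the stricter filter, 0 to 5 with 1 array left out and 0 without both arrays numbered 3. No gene was called without knockout 1 or without knockout 3, where 498 and 254 genes had an unadjusted limma p under 0.05, and 268 had without both arrays numbered 3. Probe sets called numbered 4, and 2 with the stricter filter, 0 to 6 with 1 array left out and 0 without both arrays numbered 3, where 442 had an unadjusted limma p under 0.05. The replicate block changed no call of the 10 genes. Fewer arrays or genes entered the fits with arrays left out or with the stricter filter, while the replicate block used all of them. The cause of these moves was not tested. Dim probe sets of Scd1, Acaca and Acly limit what can be said of their agreement.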
